A study of Mus musculus with 16 samples.

Results

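The genes described here are 9 secreted products that mouse Paneth cells make besides the defensins, namely Lyz1, Pla2g2a, Pla2g5, Ang4, Mmp7, Habp2, Itln1, Mptx1 and Mptx2. They were chosen by name, with earlier results of these data known, from 37620 genes in the files, and all 9 were among the 16558 genes with enough counts to be tested. RNA was sequenced from proximal jejunum, and the donors were male mice of strain CBA/J aged 8 weeks. In all, 16 libraries formed 4 groups of 4, given as the methionine-adequate diet with 8.5 Gy of gamma radiation, the adequate diet with 0 Gy, the methionine-supplemented (300%) diet with 8.5 Gy, and the supplemented diet with 0 Gy. The design text adds a period of 6 days and does not say whether it counts from the start of the diet or from irradiation. The labels do not say whether a library is a single mouse, so the spread between libraries may hold technical as well as animal differences.

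Paneth cells sit at the base of the small intestinal crypt beside the stem cells. They store antimicrobial proteins in large granules, release them into the crypt lumen, and supply Wnt and Notch ligands to their neighbours. The proteins described here include a lysozyme that cuts bacterial cell walls, phospholipases that break down bacterial membranes, an antimicrobial ribonuclease, proteases that activate other precursors, and lectins or pentraxins that bind sugars and lipids on microbes.

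Library totals lay between 2.57 and 15.51 M (mega) counts, and 3 libraries had under 4 M: adequate-diet 8.5 Gy replicate 2, adequate-diet 0 Gy replicate 1 and supplemented-diet 8.5 Gy replicate 1. Levels are in CPM (counts per 1 M counts, with totals scaled by TMM factors), and values follow replicates 1 to 4. The alpha-defensins, which define Paneth cells, were present in every library, with a summed level of 8112 to 13680 CPM in irradiated and 2495 to 3421 CPM in unirradiated jejunum on the adequate diet. On the supplemented diet their sum was 10490 to 17180 CPM in irradiated and 3235 to 6316 CPM in unirradiated jejunum.

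All 9 genes were higher after irradiation on both diets. In edgeR's quasi-likelihood test at an adjusted p under 0.05, 9 of 9 were called higher on the adequate diet, where 7.13% of all tested genes were called higher. On the supplemented diet 9 of 9 were called higher as well, against 8.03% of all tested genes. Since the genes were chosen with these contrasts known, the counts and the fold changes below are a description and carry no test. In whole tissue, more Paneth cells, more RNA per Paneth cell and less RNA from other cells cannot be told apart. The median log2 fold change was 1.98 on the adequate diet and 2.04 on the supplemented diet, against 0.01 over all tested genes on each. For all 9 genes, the 4 irradiated libraries lay above the 4 unirradiated libraries on each diet, which held for 9.34% of tested genes on the adequate diet and 9.43% on the supplemented diet.

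**Figure D1:**
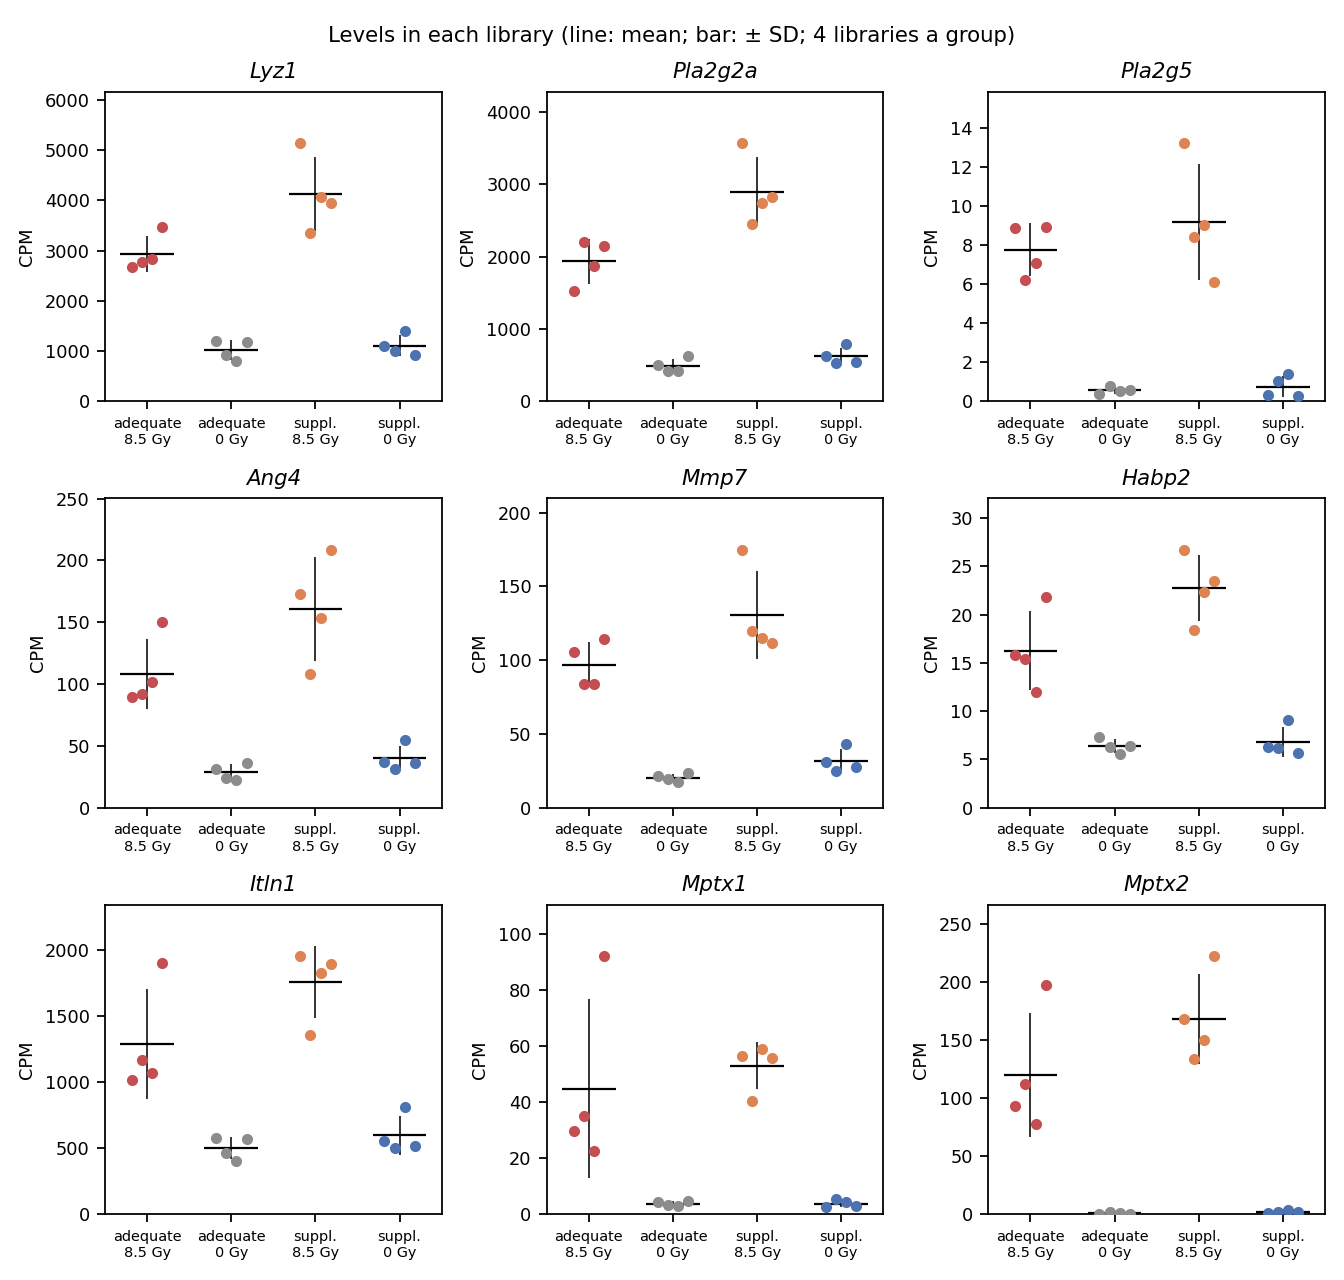
Level of each gene in CPM (linear axis from 0) in the 4 groups. Points are libraries, the horizontal line is the mean and the bar ± SD of 4 libraries. The irradiated libraries lie above the unirradiated libraries of the same diet in all 9 panels, and Mptx2 is near the axis without irradiation.

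Lyz1 encodes lysozyme P, the granule enzyme that cuts peptidoglycan. Lyz1 on the adequate diet stood at 2681, 2765, 2831 and 3471 CPM in irradiated libraries, against 1203, 922.1, 797.5 and 1186 CPM in unirradiated libraries. Lyz1 on the supplemented diet stood at 5131, 3349, 4064 and 3954 CPM in irradiated libraries, against 1109, 997, 1400 and 929.5 CPM in unirradiated libraries. The lowest irradiated library on either diet was above the highest unirradiated library of both. The log2 fold change was 1.52 ± 0.21 (SE) on the adequate diet and 1.89 ± 0.21 on the supplemented diet, that is, 2.86-fold and 3.72-fold.

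Lyz1 has a neighbour of nearly the same sequence, Lyz2, the lysozyme of macrophages. Their coding sequences differ at 22 of 447 positions in the GENCODE M21 transcripts (build GRCm38, chromosome 10), and the longest identical stretch is 118 bases. Of the windows of 45 bases in the Lyz1 transcript, 19.8% also occur in Lyz2. The 90 coding bases with the most differences, positions 43 to 132, show where short reads can be told apart, with differing bases in capitals.

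Lyz1: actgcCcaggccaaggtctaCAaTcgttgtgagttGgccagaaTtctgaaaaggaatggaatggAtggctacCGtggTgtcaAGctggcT
Lyz2: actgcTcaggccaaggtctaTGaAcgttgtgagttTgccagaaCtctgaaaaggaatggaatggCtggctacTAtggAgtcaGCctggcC

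Lyz1 held most of the reads of this pair throughout. Its share of the summed Lyz1 and Lyz2 counts was 96.6% ± 0.492 (SD, n = 4) in irradiated and 95.7% ± 0.698 in unirradiated jejunum on the adequate diet, and 96.5% ± 0.555 and 95.9% ± 1.62 in irradiated and unirradiated jejunum on the supplemented diet. Lyz2 itself averaged 104.4 ± 17.3 CPM in irradiated and 46.8 ± 12.5 CPM in unirradiated jejunum on the adequate diet (log2 fold change 1.16 ± 0.27, edgeR adjusted p = 0.00921). On the supplemented diet it averaged 151.6 ± 45.6 CPM in irradiated and 47.1 ± 17.1 CPM in unirradiated jejunum (1.68 ± 0.27, edgeR adjusted p = 0.000743). The authors' counting assigned shared reads between the pair by estimation, so the rise of Lyz2 is uncertain beside the far higher level of Lyz1. Lyz2 comes from a list chosen with earlier results of these data known, so its p-values are a description. Of 9 macrophage markers, 2 were called higher on each diet (Mrc1 and Cd14). Among all tested genes, 7.13% were called higher on the adequate and 8.03% on the supplemented diet. The part of macrophages in the rise of Lyz2 was not tested.

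Pla2g2a encodes the group IIA secreted phospholipase A2, which kills Gram-positive bacteria. The C57BL/6J reference carries it as a pseudogene (a transcribed pseudogene in RefSeq and a polymorphic one in GENCODE M21), and in these CBA/J jejuna it was among the most abundant of the 9 genes. Pla2g2a on the adequate diet stood at 1527, 2198, 1873 and 2146 CPM in irradiated libraries, against 503.5, 416.7, 419.1 and 622.3 CPM in unirradiated libraries. Pla2g2a on the supplemented diet stood at 3568, 2448, 2744 and 2829 CPM in irradiated libraries, against 627.8, 529.3, 792.4 and 545.2 CPM in unirradiated libraries. The groups of different dose did not overlap, and the irradiated groups of the 2 diets did not overlap either. The log2 fold change with dose was 1.98 ± 0.21 on the adequate diet and 2.22 ± 0.21 on the supplemented diet.

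For Pla2g2a the files also give a mean transcript length, a value that RSEM weights by the estimated share of each transcript. Their mean length on the adequate diet was 762, 698, 725 and 754 nt in irradiated libraries, against 782, 786, 787 and 772 nt in unirradiated libraries. Their mean length on the supplemented diet was 713, 695, 709 and 682 nt in irradiated libraries, against 786, 784, 763 and 784 nt in unirradiated libraries. The groups did not overlap on either diet, with a difference between irradiated and unirradiated jejunum of -46.9 nt on the adequate and -79.5 nt on the supplemented diet. All 4 libraries were shorter than the other 4 for 2.93% of 8495 genes with several transcripts on the adequate diet, for 4.97% on the supplemented diet and for 0.789% on both. The two-sided exact permutation test gave p = 0.0286 on each diet, the smallest that 4 libraries against 4 allow, and 0.286 after adjustment over 20 length comparisons, so neither passed the correction. Between the diets at 8.5 Gy, the difference of supplemented from adequate jejunum was -35 nt (same exact test, p = 0.0857, adjusted 0.571). For Pla2g5, Mmp7, Habp2 and Itln1, the other 4 genes with several transcripts, the exact p lay between 0.314 and 1 in 16 comparisons. GENCODE M21 lists 4 Pla2g2a transcripts of 788, 784, 557 and 462 nt, and the one of 557 nt retains an intron. Which of them made up the shorter mean was not analysed here.

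**Figure D2:**
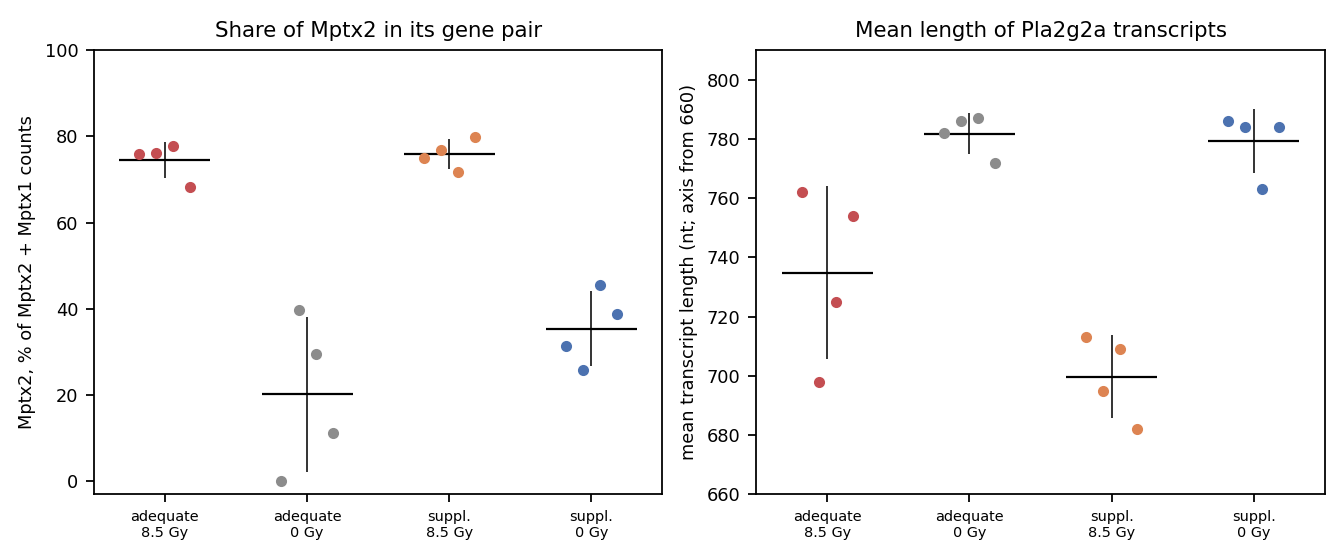
Left, counts of Mptx2 as a percentage of the summed Mptx2 and Mptx1 counts, and right, the mean length of Pla2g2a transcripts in nt (axis from 660), in the 4 groups. Points are libraries, with the mean and ± SD of 4 libraries. The Mptx2 share lies between 68.2 and 80.0% in irradiated libraries and between 0 and 45.6% in unirradiated libraries, and Pla2g2a is shorter in every irradiated library than in the unirradiated libraries of its diet.

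Pla2g5 encodes the group V secreted phospholipase A2. It was the least abundant of the 9 genes and rested on 15 to 131 counts per irradiated library and 1 to 14 counts per unirradiated library. Pla2g5 on the adequate diet stood at 8.87, 6.22, 7.07 and 8.91 CPM in irradiated libraries, against 0.383, 0.795, 0.515 and 0.571 CPM in unirradiated libraries. Pla2g5 on the supplemented diet stood at 13.2, 8.39, 9.02 and 6.11 CPM in irradiated libraries, against 0.314, 1.03, 1.40 and 0.293 CPM in unirradiated libraries. All irradiated libraries were above all unirradiated ones, with a log2 fold change of 3.67 ± 0.39 on the adequate diet and 3.54 ± 0.36 on the supplemented diet. In RefSeq on GRCm38.p6, Pla2g2a lies within the span of Pla2g5 on chromosome 4, on the opposite strand. The sources used here do not say whether reads were counted by strand. Reads of the far more abundant Pla2g2a might therefore have been counted for Pla2g5 where exons meet. The expected counts of both genes were whole numbers in every library, whereas those of Lyz1, which shares reads with Lyz2, were fractional. The longest coding transcript of each gene in GENCODE M21 shared no window of 45 bases with any transcript of the other, on either strand. These transcripts are of a later build than the counts. Whether reads of Pla2g2a were counted for Pla2g5 was not tested.

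Ang4 encodes angiogenin 4, a microbicidal ribonuclease of mouse Paneth cells that goblet cells can also make. Ang4 on the adequate diet stood at 89.4, 91.7, 101.7 and 150.2 CPM in irradiated libraries, against 31.4, 24.5, 22.3 and 36.3 CPM in unirradiated libraries. Ang4 on the supplemented diet stood at 172.5, 107.9, 153.1 and 208.6 CPM in irradiated libraries, against 37.1, 31.4, 54.5 and 36.6 CPM in unirradiated libraries. Dose groups did not overlap, and the log2 fold change was 1.93 ± 0.24 on the adequate and 2.01 ± 0.23 on the supplemented diet. Its relatives Ang5 and Ang2 share 6.17% of its 45-base windows.

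Mmp7, or matrilysin, is the metalloprotease that activates alpha-defensin precursors in mouse Paneth cells. Mmp7 on the adequate diet stood at 105.4, 84.2, 83.9 and 114.4 CPM in irradiated libraries, against 21.9, 19.3, 17.3 and 23.5 CPM in unirradiated libraries. Mmp7 on the supplemented diet stood at 174.9, 119.7, 115.2 and 112.0 CPM in irradiated libraries, against 30.9, 24.8, 43.5 and 27.4 CPM in unirradiated libraries. The lowest irradiated library was well above the highest unirradiated one on each diet. The log2 fold change was 2.25 ± 0.20 on the adequate diet and 2.04 ± 0.19 on the supplemented diet. In the GENCODE M21 transcripts 7.81% of its windows also occur in AV064505.

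Habp2 encodes hyaluronan-binding protein 2, a serine protease that activates coagulation factor VII. It averaged 16.2 ± 4.09 CPM in irradiated and 6.37 ± 0.705 CPM in unirradiated jejunum on the adequate diet, and 22.7 ± 3.43 CPM in irradiated and 6.80 ± 1.55 CPM in unirradiated jejunum on the supplemented diet (SD, n = 4 each). The lowest irradiated library was at 12 CPM and the highest unirradiated one at 9.09 CPM. The log2 fold change was 1.38 ± 0.20 on the adequate diet and 1.73 ± 0.19 on the supplemented diet, and 8.08% of its windows also occur in Nrap.

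Itln1 encodes intelectin 1, a lectin that binds sugars of microbial surfaces and is made by Paneth and goblet cells. It averaged 1287 ± 414.2 CPM in irradiated and 501.9 ± 83.9 CPM in unirradiated jejunum on the adequate diet, and 1756 ± 273.6 CPM in irradiated and 595.7 ± 146.8 CPM in unirradiated jejunum on the supplemented diet. Its log2 fold change was the smallest of the 9 on each diet, at 1.36 ± 0.23 on the adequate and 1.56 ± 0.24 on the supplemented diet. Of 10 goblet cell markers, 5 were called higher on the adequate diet and 6 on the supplemented diet. Among all tested genes, 7.13% and 8.03% were called higher on these diets. The median log2 fold change of the goblet markers was 0.48 and 0.69. The goblet markers summed to 11660 to 15180 CPM in irradiated and 10110 to 10730 CPM in unirradiated jejunum on the adequate diet, and to 11670 to 18870 CPM in irradiated and 8867 to 10110 CPM in unirradiated jejunum on the supplemented diet. Their part in the values of Itln1 and Ang4 was not tested.

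Mptx1 and Mptx2 encode mucosal pentraxins, members of the family of C-reactive protein. Mptx2 changed the most of the 9 genes. Mptx2 on the adequate diet stood at 93.5, 112.0, 78.1 and 197.4 CPM in irradiated libraries, against 0, 2.12, 1.24 and 0.571 CPM in unirradiated libraries, where the count of 0 in replicate 1 allows up to 1.15 CPM. Mptx2 on the supplemented diet stood at 168.1, 133.5, 150.0 and 222.6 CPM in irradiated libraries, against 1.15, 1.85, 3.60 and 1.96 CPM in unirradiated libraries. The lowest irradiated library was far above the highest unirradiated one. The log2 fold change was 6.64 ± 0.48 on the adequate diet, rank 9 of 16558 tested genes, and 6.29 ± 0.44 on the supplemented diet, rank 4. Without adequate-diet 0 Gy replicate 2, the value on the adequate diet was 7.26.

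Mptx1 had smaller fold changes than Mptx2. Mptx1 on the adequate diet stood at 29.7, 34.9, 22.4 and 92.0 CPM in irradiated libraries, against 4.22, 3.27, 2.89 and 4.66 CPM in unirradiated libraries. Mptx1 on the supplemented diet stood at 56.3, 40.5, 59 and 55.8 CPM in irradiated libraries, against 2.51, 5.45, 4.20 and 3.03 CPM in unirradiated libraries. Dose groups did not overlap, and replicate 4 stood above the other irradiated libraries of the adequate diet. The log2 fold change was 3.62 ± 0.43 on the adequate diet, 2.94 without that library, and 3.79 ± 0.41 on the supplemented diet.

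The 2 pentraxin genes lie on chromosome 1, and their coding sequences are identical at 607 of 660 positions (92.0%, GENCODE M21). The longest identical stretch is 109 bases, and 19.9% of the 45-base windows of Mptx2 also occur in Mptx1. The 90 coding bases with the most differences, positions 535 to 624 with 15 differing bases in capitals, show what separates their reads.

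Mptx2: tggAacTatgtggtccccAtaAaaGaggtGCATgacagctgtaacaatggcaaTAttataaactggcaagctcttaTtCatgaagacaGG
Mptx1: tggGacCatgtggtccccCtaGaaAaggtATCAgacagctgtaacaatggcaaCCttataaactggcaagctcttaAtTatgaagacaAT

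Because shared reads are divided by estimation, the pair was also read as a sum and a share. The summed level was 165.1 ± 85.1 CPM in irradiated and 4.74 ± 0.661 CPM in unirradiated jejunum on the adequate diet, and 221.5 ± 43.4 CPM in irradiated and 5.93 ± 1.95 CPM in unirradiated jejunum on the supplemented diet. Mptx2 made up 74.5% ± 4.27 of the sum in irradiated and 20.1% ± 17.9 in unirradiated jejunum on the adequate diet, and 75.9% ± 3.42 in irradiated and 35.4% ± 8.61 in unirradiated jejunum on the supplemented diet. No irradiated library overlapped an unirradiated one in this share. Per length, Mptx2 was above Mptx1 in 8 of 8 irradiated libraries and in 1 of 8 unirradiated ones, supplemented-diet 0 Gy replicate 3, at 5.87 against 5.58 CPM per kilobase. The unirradiated shares rest on few reads, and the share of 0% in adequate-diet 0 Gy replicate 1 came from 11 counts, with an exact binomial 95% interval up to 28.5% that covers counting error only. The files give Mptx2 a length of 660 nt, its coding length, and Mptx1 a length of 799 nt, and the share of counts is not corrected for this.

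The sequence before the start sites is shown because the 2 genes responded to a different degree. A link between this sequence and the responses was not tested. The stretches come from RefSeq on GRCm38.p6 and end where a GENCODE M21 exon begins, at chr1:173277778-173278006 on the minus strand for Mptx2 and chr1:174330268-174330517 on the plus strand for Mptx1. They are identical at 197 of 228 aligned positions (86.4%), and capitals mark matches to the motifs searched on both strands. The stretch is 250 bases for Mptx1 and 229 for Mptx2, and the search covered 250 bases before the RefSeq start of each gene, as it did for the shares over all promoters.

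Mptx2: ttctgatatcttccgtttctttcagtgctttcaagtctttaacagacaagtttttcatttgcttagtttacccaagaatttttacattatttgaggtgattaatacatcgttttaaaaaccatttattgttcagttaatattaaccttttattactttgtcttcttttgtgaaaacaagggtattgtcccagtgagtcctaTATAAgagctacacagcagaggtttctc
Mptx1: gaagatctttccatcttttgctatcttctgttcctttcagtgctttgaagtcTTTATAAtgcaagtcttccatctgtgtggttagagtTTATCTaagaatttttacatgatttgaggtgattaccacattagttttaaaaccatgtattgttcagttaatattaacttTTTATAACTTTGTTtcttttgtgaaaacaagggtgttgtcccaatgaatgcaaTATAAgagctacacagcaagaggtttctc

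The motifs searched were TATAAA for the TATA box, CTTTGNT for TCF/LEF, TGANTCA for AP-1, AGATAA for GATA factors, TTTATGG for CDX2, TTCNNNGAA for STAT factors, and the STAT6 form with a longer spacer. The shorter TATAA was added after the sequences had been read, because TATAAA missed the element that the pair shares near the start, so a match to it is not an independent observation. TATAAA occurred before Mptx1, on the minus strand, with no match in the 250 bases before Mptx2, and is present in 12.4% of 32851 promoters. TATAA occurred before both and is present in 22.8% of promoters. The Mptx1 stretch also held CTTTGNT (16% of promoters) and AGATAA (9.99%), which do not overlap each other, with no match to either before Mptx2. Among the other genes, Mmp7 had the TATA box, AP-1 and GATA-factor motifs before its first start (AP-1 is in 6.75% of promoters) and the TCF/LEF motif before its second. Ang4 had the AP-1 motif and the STAT motif (7.02%), Itln1 had the shorter TATAA with the TCF/LEF and CDX2 motifs (CDX2 in 2.43%), and Pla2g5 had the GATA motif before its second start. No motif searched had a match before Lyz1 or Habp2. Pla2g2a had no entry among the promoters and was not searched.

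Levels can be ordered between genes only per length, as CPM per kilobase. In irradiated jejunum of both diets the order was Pla2g2a, Lyz1, Itln1, Mptx2, Ang4, Mmp7, Mptx1, Habp2 and Pla2g5. In unirradiated jejunum of both diets it was Lyz1, Pla2g2a, Itln1, Ang4, Mmp7, Mptx1, Habp2, Mptx2 and Pla2g5. Pla2g2a stood at 2825 ± 522.3 CPM per kilobase in irradiated and 667.1 ± 138.8 in unirradiated jejunum on the adequate diet, and its libraries overlapped those of Lyz1 in all 4 groups. Mptx2 held place 4 in irradiated jejunum and place 8 in unirradiated jejunum, and after irradiation its libraries overlapped those of Ang4 on both diets. Itln1 stood apart from the gene below it in every group, by 6.00 and 5.84 times over Mptx2 in irradiated jejunum on the adequate and supplemented diets, and by 10.6 and 9.04 times over Ang4 in unirradiated jejunum. Together the 9 genes held 0.614% ± 0.158 of all counts in irradiated and 0.218% ± 0.0434 in unirradiated jejunum on the adequate diet, and 0.883% ± 0.168 in irradiated and 0.261% ± 0.0437 in unirradiated jejunum on the supplemented diet. Lyz1, Pla2g2a and Itln1 made up 92.8 to 97.2% of those counts.

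**Figure D3:**
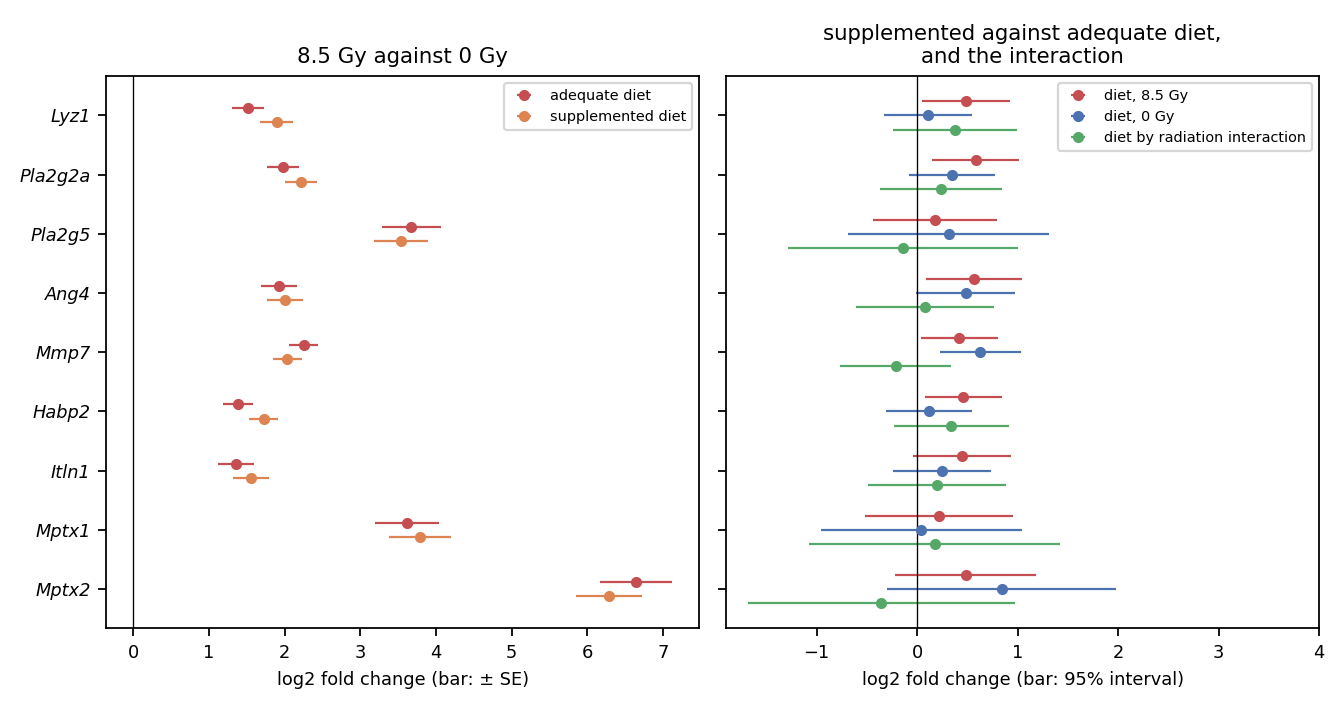
Log2 fold changes of the 9 genes. Left, 8.5 Gy against 0 Gy on each diet with ± SE, between 1.36 for Itln1 and 6.64 for Mptx2. Right, supplemented against adequate diet, separately by dose, and the interaction of diet with radiation, with 95% intervals, where the intervals of the interaction hold 0 for all 9 genes.

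The diet comparisons ask whether methionine supplementation changed these genes at either dose. None of the 9 was called at 8.5 Gy, where edgeR called 0% of all tested genes (871 genes had an unadjusted p under 0.05, limma voom called 0 and DESeq2 called 1 higher and 5 lower). None was called at 0 Gy, where 0.199% of all tested genes were called. An unadjusted p under 0.05 was reached at 8.5 Gy by 5 of the 9 in edgeR, 7 in limma voom and 6 in DESeq2, against 5.26%, 5.49% and 5.13% of all tested genes. At 0 Gy it was reached by 1 of the 9 in edgeR, 2 in limma voom and 3 in DESeq2, against 11.9%, 12.1% and 11.7% of all tested genes, so the edgeR count is near the background. All 9 log2 fold changes were above 0 at both doses, as were those of 49.9% of all tested genes at 8.5 Gy and 48.6% at 0 Gy. The 2 comparisons use different libraries, but the 9 genes vary together between libraries, so their common sign is not 9 separate observations. The median was 0.46 at 8.5 Gy and 0.31 at 0 Gy.

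Pla2g2a had the smallest p of the 9 at 8.5 Gy, with 2897 ± 476.1 CPM in supplemented and 1936 ± 307.6 CPM in adequate jejunum (log2 fold change 0.58 ± 0.20, edgeR unadjusted p = 0.011, adjusted p = 0.919). It was the only one of the 9 whose diet groups did not overlap at that dose, where 1.44% of tested genes had all supplemented libraries above. Lyz1, Ang4, Mmp7 and Habp2 also had an unadjusted p under 0.05 at 8.5 Gy, with log2 fold changes of 0.49 ± 0.21, 0.56 ± 0.23, 0.42 ± 0.18 and 0.46 ± 0.18 and an edgeR adjusted p of 0.927 for each. This count of 5 genes depended on single libraries, on depth and on scale. In the adequate-diet 8.5 Gy group it was 8 without replicate 4, 1 without replicate 3, 2 without replicate 2 and 3 without replicate 1. It was 2 without supplemented-diet 8.5 Gy replicate 1, and 1 without the 3 libraries under 4 M counts. With limma on log2(TPM + 1), a scale described below, it was 0.

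At 0 Gy, Mmp7 had the smallest p of the 9, with 31.6 ± 8.27 CPM in supplemented and 20.5 ± 2.72 CPM in adequate jejunum (log2 fold change 0.63 ± 0.19, edgeR unadjusted p = 0.00416, adjusted p = 0.193). Its diet groups did not overlap at that dose, with all supplemented libraries above for 4.71% of tested genes. The other 8 genes had log2 fold changes between 0.04 for Mptx1 and 0.84 for Mptx2, and Mptx2 had a 95% interval of -0.30 to 1.98. Without supplemented-diet 0 Gy replicate 3, 5 of 9 fold changes were above 0 and the median was 0.06.

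The interaction sets the 2 radiation responses against each other, as the log2 fold change under supplementation less that under the adequate diet. None of the 9 was called, and edgeR called 0% of all tested genes (738 had an unadjusted p under 0.05, limma voom called 0 and DESeq2 called 2 lower). The estimates lay between -0.36 for Mptx2 and 0.38 for Lyz1, with 6 of 9 above 0 and an edgeR adjusted p of 1 for each. The 95% interval was -0.24 to 0.997 for Lyz1, -0.37 to 0.84 for Pla2g2a, -0.77 to 0.34 for Mmp7 and -1.69 to 0.97 for Mptx2. Differences in response as large as the ends of these intervals were not excluded with 4 libraries a group.

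Within groups, the libraries differed in a way that most of the 9 genes shared. Deviations of log2 CPM from the group mean gave a positive Pearson's r for 34 of 36 gene pairs over 16 libraries, with a median of 0.553 and a range of -0.141 to 0.918. Ang4 and Itln1 were the most alike (0.918), followed by Habp2 and Itln1 (0.896) and by Lyz1 and Itln1 (0.869). Lyz1 was most like Itln1, Pla2g2a (0.850) and Mmp7 (0.83) most like Lyz1, and Mptx1 (0.744) most like Itln1. Mptx2 was the least alike, with its highest r at 0.440 with Pla2g5, which itself was most like Mmp7 (0.514). The points share library depth and tissue composition, and the values are a description.

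**Figure D4:**
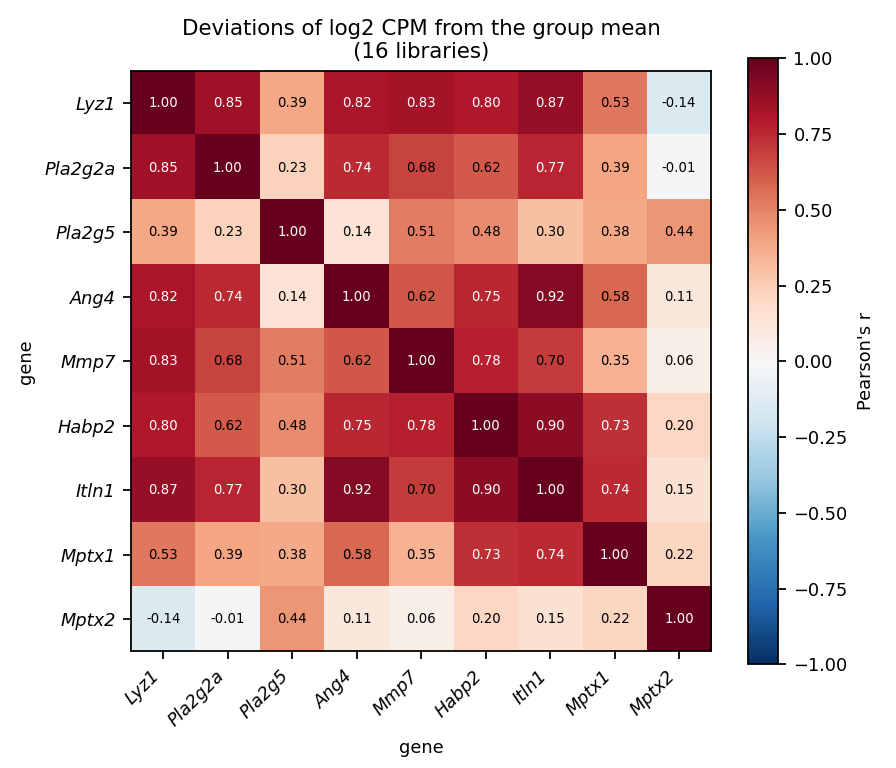
Pearson's r between the 9 genes of the deviations of log2 CPM from the group mean, over 16 libraries. Lyz1, Pla2g2a, Ang4, Mmp7, Habp2 and Itln1 form a block of high values, and Mptx2 lies between -0.14 and 0.44 with the other 8.

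All 9 genes were above their group mean in adequate-diet 8.5 Gy replicate 4, supplemented-diet 8.5 Gy replicate 1 and supplemented-diet 0 Gy replicate 3. None was above it in adequate-diet 8.5 Gy replicate 3, supplemented-diet 8.5 Gy replicate 2 and supplemented-diet 0 Gy replicate 4. In adequate-diet 8.5 Gy replicate 4, the summed crypt stem cell markers were at 1088 CPM against 480.3 to 610.9 CPM in the other 3 libraries, the fibroblast markers at 1990 against 827.4 to 1109 CPM, and the absorptive enterocyte markers at 11800 against 17460 to 26970 CPM. In supplemented-diet 8.5 Gy replicate 1 the enterocyte markers were the lowest of the group at 9789 CPM, against 15750 to 34650 CPM. In supplemented-diet 0 Gy replicate 3 they were the highest of the group, at 26040 against 21410 to 22940 CPM. Its fibroblast markers, at 1381 against 995.7 to 1212 CPM, and stem cell markers, at 459.4 against 339.5 to 423.2 CPM, were also the highest. In supplemented-diet 8.5 Gy replicate 1, fibroblast (1604 CPM) and stem cell markers (802.5 CPM) lay inside the range of the group. The libraries with none of the 9 genes above the mean had the lowest fibroblast sums of their groups (827.4, 1386 and 995.7 CPM). The genes outside the 9 most like their mean deviation were Myof (r = 0.893), Fstl1 (0.893), Filip1l (0.891), Vcan (0.885) and Hmcn1 (0.878) of 9214 genes ranked over 16 libraries. The background of this measure had a median r of 0.003 and a 95th percentile of 0.605. The part of tissue composition in these differences was not tested.

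Other genes of the Paneth cell were taken from named lists. These lists, and those of other cells, were chosen with earlier results known, so their calls and p-values for radiation are a description. Of 14 tested alpha-defensins, 12 were called higher on the adequate and 11 on the supplemented diet. Among all tested genes, 7.13% and 8.03% were called higher on these diets. The median log2 fold change of the alpha-defensins was 2.43 and 1.82. Defa23 went the other way, at -4.186 ± 1.305 on the adequate and -3.896 ± 1.251 on the supplemented diet. It was not called on either diet (edgeR adjusted p = 0.05 and 0.0525). Its mean was 2.498 CPM in irradiated and 50.96 CPM in unirradiated jejunum on the adequate diet. On the supplemented diet it was 3.175 CPM in irradiated and 49.35 CPM in unirradiated jejunum. Defa35 stood at 374.2 ± 37.7 CPM in irradiated and 17.9 ± 3.06 CPM in unirradiated jejunum on the adequate diet (4.37 ± 0.23, edgeR adjusted p = 1.53e-08). Defa35 was also the alpha-defensin called for diet at 0 Gy, at 48.6 ± 15.3 CPM in supplemented and 17.9 ± 3.06 CPM in adequate jejunum (edgeR adjusted p = 0.0147). Alpha-defensin genes are near copies of each other, so the split of reads among them is uncertain.

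Of 13 regulators of Paneth cells, 5 were called higher and 1 lower on the adequate diet, and 4 higher and 1 lower on the supplemented diet. Among all tested genes, 7.13% were called higher and 6.58% lower on the adequate diet, and 8.03% higher and 7.21% lower on the supplemented diet. Sox9, a transcription factor that Paneth cells need, had a log2 fold change of 0.73 ± 0.21 on the adequate diet (edgeR adjusted p = 0.0327) and 0.90 ± 0.21 on the supplemented diet (adjusted p = 0.00857). Ephb3, the receptor that keeps Paneth cells at the crypt base, Spdef and Bhlha15, transcription factors of secretory cells, rose on both diets, by 0.96 ± 0.24, 0.78 ± 0.15 and 0.86 ± 0.22 on the adequate diet. Ern1, a sensor of endoplasmic reticulum stress, fell by 0.68 on the adequate diet and by 0.51 on the supplemented diet. Xbp1 was called higher on the adequate diet alone, and its interaction was not called. Atoh1, which sets the secretory lineage, stood at 0.53 ± 0.20 and 0.51 ± 0.20 and was not called on either diet (edgeR adjusted p = 0.0936 and 0.09).

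Of 4 ligands that Paneth cells supply to stem cells, Wnt3 was called on both diets, at 1.07 ± 0.27 on the adequate diet (edgeR adjusted p = 0.0138) and 1.03 ± 0.25 on the supplemented diet (0.0115), while Egf, Tgfa and Dll4 were not called. Of 6 inhibitors and receptors of the proteins described here, Timp1, an inhibitor of metalloproteases such as matrilysin, was called on both diets (4.13 ± 0.62 and 2.47 ± 0.44, edgeR adjusted p = 0.000553 and 0.00146 on the adequate and supplemented diets). It rested on low levels, at 1.35 ± 0.559 CPM in irradiated and 0.0479 ± 0.0556 CPM in unirradiated jejunum on the adequate diet. Timp2 was called on the supplemented diet (0.54 ± 0.18, edgeR adjusted p = 0.0471). Of 18 tested relatives, 8 were called higher and 1 lower on the adequate diet, and 6 higher and 1 lower on the supplemented diet. Among all tested genes, 7.13% were called higher and 6.58% lower on the adequate diet, and 8.03% higher and 7.21% lower on the supplemented diet. Rnase4, a ribonuclease of the angiogenin family, stood at 1.25 ± 0.21 and 1.42 ± 0.21 on the adequate and supplemented diets, and Pla2g2f, another secreted phospholipase, at 1.16 ± 0.28 and 1.40 ± 0.27.

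Markers of other cells moved as follows with dose, where 7.13% of all tested genes were called higher on the adequate and 8.03% on the supplemented diet. Of 8 crypt stem cell markers, 2 were called higher on the adequate diet (Olfm4 and Lgr5) and 3 on the supplemented diet, and their summed level was 480.3 to 1088 CPM in irradiated and 329.6 to 354.2 CPM in unirradiated jejunum on the adequate diet. Of 6 fibroblast markers, 1 was called higher on the adequate diet and 2 on the supplemented diet. None of 8 absorptive enterocyte markers was called on either diet. Of 5 exocrine pancreas markers, 0 were called on the adequate diet and 5 higher on the supplemented diet. The summed level of the list was 2.64 to 13.2 CPM in irradiated and 0.400 to 2.36 CPM in unirradiated jejunum of the supplemented diet. On the adequate diet it was 2.64 to 5.50 CPM in irradiated and 2.21 to 16.8 CPM in unirradiated jejunum. The part of these cells in the levels of the 9 genes was not tested.

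The size of the radiation response depends on the scale. On log2(TPM + 1), which counts each gene per length against the sum over all genes, the median over all genes was -0.61 on the adequate and -0.71 on the supplemented diet, and 6 and 7 of the 9 genes were called higher. On this scale limma called 0.984% of all tested genes higher and 79.9% lower on the adequate diet, and 0.538% higher and 84.7% lower on the supplemented diet. Lyz1 was then at 0.46 on the adequate diet (limma adjusted p = 0.0528), Habp2 at 0.04 (0.807) and 0.30 (0.0576), and Itln1 at 0.25 (0.336) and 0.29 (0.268) on the adequate and supplemented diets, all above the median of all genes.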

How the data were processed

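RNA of 16 proximal jejunum libraries was depleted of ribosomal RNA, fragmented and made into libraries with a small RNA protocol, per the labels' protocols. The submitters' processing notes name Bowtie2 2.2.9, RSEM 1.3.0, edgeR 3.2.4 and build NCBIM37, without roles. The authors deposited, per the file headers, RSEM expected counts, TPM and FPKM per gene, with the mean transcript length and effective length of each gene. FPKM was not used. The expected counts were rounded to whole numbers, filtered by filterByExpr, scaled by TMM and tested with edgeR 4.0.16 (quasi-likelihood, robust, R 4.3.3) in 1 fit with a mean per group, with Benjamini-Hochberg adjustment over 16558 genes and calls at an adjusted p under 0.05. The code was tested on simulated data. Length comparisons used exact permutation tests (SciPy 1.17.1).

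Symbols came from GENCODE M21, which named 32897 of 37620 gene IDs, and sequences from GENCODE M21 and RefSeq GRCm38.p6. Both are of a later build than the files and of strain C57BL/6J, and served for names and sequence only. A 45-base window is about the read length the files imply (45.0 to 48.4 nt).

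The 9 genes and the lists were chosen with earlier results of these data known. Every one of the 9 is named in every comparison. Likeness names the 5 genes with the highest Pearson's r, among genes with a mean log2 CPM of at least 3. List genes named are called ones with small p, and Defa23, Atoh1, Egf, Tgfa and Dll4 were named after their values were seen.

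Replicate numbers follow deposit order and pair nothing, and the labels give no batch. Library totals were 2.57 to 15.51 M counts, and no pair of libraries within a group was a duplicate (chi-square per degree of freedom at least 9.62). Alternatives were other size factors, no filter, limma 3.58.1 (voom, and trend on log2(TPM + 1)), DESeq2 1.42.0, scaling over genes of at least 300 nt, leaving out the 3 smallest libraries, fitting only the groups compared, and leaving out each library.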

Additional observations from a re-analysis of the deposited data

Results flagged for a closer look

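In each group of 4 libraries, the gap of the highest and the lowest library to its nearest neighbour was set against the range of the group (Dixon's test at its 95% critical value). Of 36 groups tested, 3 passed it, and chance passes about 1 in 20. Mmp7 stood at 174.9 CPM in supplemented-diet 8.5 Gy replicate 1, far above the other 3 libraries at 112.0 to 119.7 CPM. Mptx1 stood at 40.5 CPM in supplemented-diet 8.5 Gy replicate 2, far below the other 3 at 55.8 to 59 CPM. Itln1 stood at 813.6 CPM in supplemented-diet 0 Gy replicate 3, far above the other 3 at 500.1 to 550.7 CPM.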

How the results depend on the processing

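The counts of the 9 genes called were 9, 9, 0, 0 and 0 in the 5 comparisons. Each alternative run for a comparison gave the same count, except log2(TPM + 1) with 6 and 7 for radiation on the adequate and supplemented diets. A fit of only the groups compared was not run for the interaction and left out Pla2g5 for diet at 0 Gy, and a library was left out only of comparisons that use it. Leaving out any library of the groups compared kept all 9 genes called higher after irradiation on each diet. No paired analysis was possible because the labels give no shared replicate numbers. Fold changes that turned sign were all ones not called, in the diet comparisons and the interaction. For diet at 8.5 Gy, leaving out a library in turn gave -0.015 to 0.89 for Mptx1 and -0.0077 to 0.33 for Pla2g5, and Pla2g5 was -0.074 without the 3 smallest libraries. For diet at 0 Gy, leaving out a library gave -0.020 to 0.20 for Lyz1, -0.16 to 0.59 for Pla2g5, -0.052 to 0.20 for Habp2 and -0.18 to 0.21 for Mptx1, and log2(TPM + 1) gave -0.066 for Habp2 and -0.0069 for Mptx1. For the interaction, leaving out a library gave -0.41 to 0.33 for Pla2g5, -0.082 to 0.28 for Ang4, -0.059 to 0.85 for Mptx1 and -0.98 to 0.0089 for Mptx2. Pla2g5 was 0.040 with voom, and Ang4 was -0.11 with log2(TPM + 1) and -0.069 without the 3 smallest libraries. The cause was not tested. Depth limits Pla2g5 and the pentraxins most, which rest on few counts in unirradiated libraries.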
